A study of Mus musculus with 4 samples.

Results

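The cells described here are mouse digit myeloid cells in which Acp5, Clec5a and Matk together gave more transcripts than any of 4 other sets of myeloid marker genes. A cell was a member when it passed the quality limits, held no Cdh5 transcript, held at least 3 transcripts of Csf1r, Lyz2 and C1qb together, held at least 3 of Acp5, Clec5a and Matk together, and held more of these than of each other set. The other sets were Lyve1, Folr2, Cbr2 and F13a1, then Ms4a7, Ms4a14 and Apoc2, then Ear2, Adgre4, Plac8 and Ly6c2, and last Cd209a, Flt3 and Klrb1b. The rule chose 884 of 9859 cells of the myeloid gate and of 39266 cells kept in all. Acp5, Clec5a, Matk and every gene of the other sets and of the gate therefore chose the members, and their levels are given as a description.

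The 4 single-cell RNA libraries came from the second phalanx (P2) of digits of 8-week-old wild-type FVB/NJ mice, 1 from unamputated tissue and 1 each from the scarring digit at 12, 17 and 28 days post-amputation (dpa). An amputation through P2 does not regenerate, per the series' design text. All 4 groups shared the strain and genotype, and per the labels male and female animals were pooled and viable cells, those without propidium iodide stain, were sorted. The number of animals was not given in the sources used here, and each group was 1 library, so no difference between time points has a replicate check and no test was made. Intervals in brackets are 95% exact intervals and cover counting error only. Values given as 4 numbers follow the order unamputated, 12, 17 and 28 dpa.

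Acp5 encodes tartrate-resistant acid phosphatase, the enzyme by which osteoclasts are stained in tissue, and is also found in some macrophages. Clec5a is a lectin receptor of monocytes, macrophages and neutrophils that signals through the adaptor Tyrobp, which carries an ITAM, a signalling motif that recruits kinases. Matk is a kinase that restrains Src-family kinases. Osteoclasts are multinucleated cells that form when monocyte-lineage precursors fuse under CSF1 and RANK ligand. They resorb bone by pumping acid into a sealed pit and releasing cathepsin K (Ctsk), which cuts collagen. After amputation of a mouse digit tip, osteoclasts erode bone at the stump.

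Acp5 lies at chr9:22126727-22135711 on the minus strand, Clec5a at chr6:40574894-40585821 on the minus strand, Matk at chr10:81252935-81263365 on the plus strand and Ctsk at chr3:95499256-95509362 on the plus strand (GENCODE M21, GRCm38). Promoters of the osteoclast markers were searched for short motifs, and the 250 bases before 2 annotated starts are shown because these held the core of the M-box, TCANNTGA, the site bound by Mitf and its relatives. They come from the RefSeq promoter table (GRCm38.p6), the capitals mark the match, and both strands were searched. The Acp5 stretch is the third listed start, chr9:22130599-22130848 on the minus strand, with its match starting at -91, and the Ctsk stretch is chr3:95498960-95499209 on the plus strand, with its match starting at -136.
Acp5: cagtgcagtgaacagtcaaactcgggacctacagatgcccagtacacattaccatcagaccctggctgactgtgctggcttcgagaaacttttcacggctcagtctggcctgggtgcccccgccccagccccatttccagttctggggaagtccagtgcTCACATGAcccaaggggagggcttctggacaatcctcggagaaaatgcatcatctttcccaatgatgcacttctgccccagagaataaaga
Ctsk: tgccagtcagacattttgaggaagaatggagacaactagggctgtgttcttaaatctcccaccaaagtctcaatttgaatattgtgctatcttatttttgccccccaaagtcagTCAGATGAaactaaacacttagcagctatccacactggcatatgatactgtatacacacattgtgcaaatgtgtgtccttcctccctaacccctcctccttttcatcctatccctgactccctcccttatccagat
Of the 8 osteoclast markers, 4 had promoter entries, 7 entries in all, and 2 of the 7 held TCANNTGA. The letters were found in 7.09% of all 32851 promoters of the same length. A match of letters is a description and not a site in use. The other motifs searched were TGANTCA, in 0 of the 7 entries and 6.75% of all promoters, GAGGAA, in 2 of the 7 (Ctsk and Oscar) and 23.3%, and TGGAAA, in 2 of the 7 (the third start of Acp5 and Oscar) and 18.6%.

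The members made up 11.6% (10.54 to 12.8) of the myeloid gate of the unamputated library, or 380 of 3272 cells. They were 15.04% (13.2 to 17.0) at 12 dpa, 213 of 1416 cells, 7.55% (6.49 to 8.72) at 17 dpa, 170 of 2252 cells, and 4.15% (3.45 to 4.93) at 28 dpa, 121 of 2919 cells. The share was thus lowest at 28 dpa, and no interval of 1 library reached that of another. With mixed cells, described next, left out of the gate, the shares were 14.8%, 15.42%, 9.17% and 3.899%, so the unamputated and 12 dpa libraries then lay close together. Of all kept cells the members were 3.18%, 3.07%, 1.96% and 1.04%, so on this base the unamputated and 12 dpa libraries lay close together and the later ones lower. Over the same libraries the Lyve1 and Folr2 set held 258, 37, 554 and 1640 cells, so the gate was filled by different cells at different times. The members had a median of 17004, 12458, 14848 and 13358 unique molecular identifiers (UMIs) per cell. Pairs of libraries shared 19 to 87 cell barcodes, and 0 barcodes were members in both. Xist was at 0, 271, 0 and 0 CPM (a gene's UMIs per 1000000 UMIs summed over the cells) in the members, and the Y-linked genes together were at 244, 0.324, 158 and 178 CPM, so the 12 dpa library differed from the other 3, and in the members of each library the signal of 1 sex was at or near 0, against the pooled sexes that the labels give.

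Some members also carried transcripts of other cell types. A member was called mixed when over 0.5% of its UMIs came from the keratinocyte, fibroblast or mural marker list, or when it held at least 20 UMIs of S100a8, S100a9 and Retnlg together, which mark neutrophils; this call was chosen after the data were seen. Mixed members numbered 54, 21, 23 and 33, which is 14.2%, 9.86%, 13.5% and 27.3% of the members. Their makeup differed between libraries: keratinocyte-rich members were 13, 4, 8 and 22, fibroblast-rich members 16, 15, 15 and 10, mural-rich members 8, 2, 0 and 2, and neutrophil-rich members 24, 2, 5 and 2. The doublet caller Scrublet marked 14.0%, 8.92%, 11.2% and 28.1% of the members. Members near a limit of the mixed call, with 0.25% to 1% of their UMIs from a list or with 10 to 40 of the neutrophil UMIs, numbered 27, 12, 8 and 8. Leaving out every mixed member left 326, 192, 147 and 88 cells, 753 in all, and each result below that rests on the mixed cells is given without them.

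**Figure D1:**
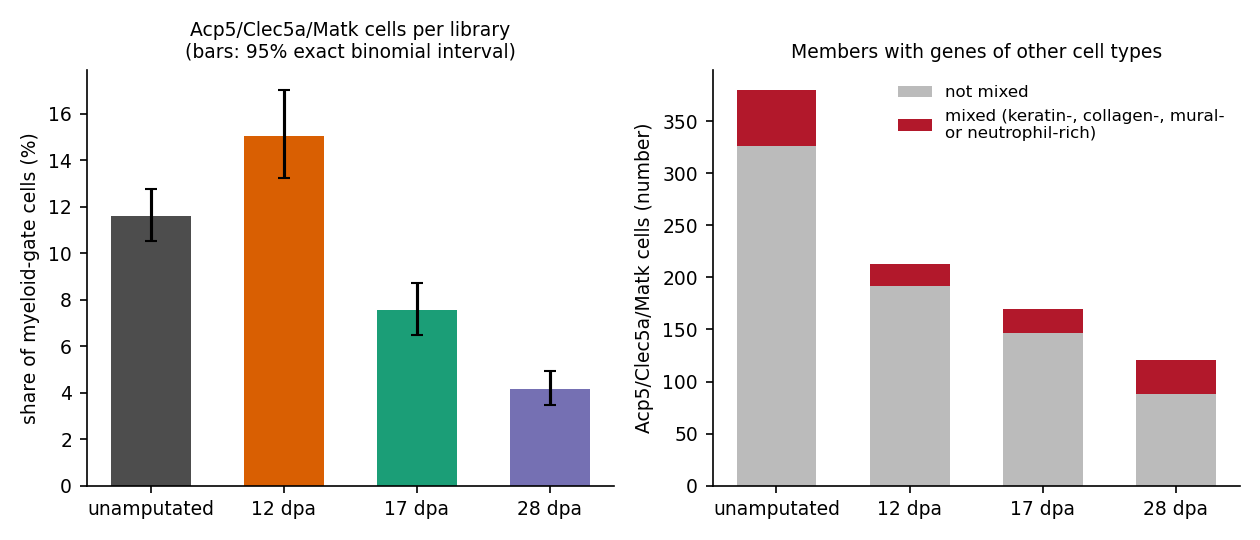
Left, members as a percentage of the cells of the myeloid gate in each of the 4 libraries, with 95% exact binomial intervals that cover counting error only. Right, the number of members per library, split into mixed and other members; the gate share was highest at 12 dpa (15.04%) and lowest at 28 dpa (4.15%), and the mixed members numbered 54, 21, 23 and 33.

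The 22 keratinocyte-rich members at 28 dpa held 6137 CPM of Krt14, a keratin of basal epidermis. In the same cells Acp5 was at 508 CPM, Clec5a at 23.4 CPM and Csf1r at 42.2 CPM, while the members without mixed cells of that library held 2732, 197 and 305 CPM of the 3 genes. Acp5 transcripts were also found in reference cells that held no Csf1r or C1qb and were chosen by at least 10 UMIs of Krt5 and Krt14 (keratinocytes), at least 10 of Col1a1 and Col3a1 (fibroblasts) or at least 2 of Cdh5 (endothelial cells). Among reference keratinocytes 68.7%, 67.5%, 55.7% and 52.3% of cells held an Acp5 UMI, at 74.3, 110.1, 71.5 and 91.3 CPM and at median depths of 18623, 14387, 12707 and 9668 UMIs. Reference fibroblasts held one in 14.97% to 21.6% of cells and reference endothelial cells in 1.77% to 2.98%. Clec5a and Matk were found in at most 1.35% of cells of those 3 classes in any library. The part that Acp5 from keratinocytes had in the count of members was not tested beyond leaving the mixed cells out.

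Acp5 was at 1743, 1485, 1234 and 1883 CPM in all members, and at 2075, 1778, 1346 and 2732 CPM without the mixed cells. It was lowest at 17 dpa and highest at 28 dpa on both counts. An Acp5 UMI was present in 73.2%, 78.4%, 72.4% and 69.4% of the members, but the level was uneven: the tenth of members with the most Acp5 held 77.3%, 73.9%, 72.7% and 86.3% of its UMIs, and single cells reached 707, 400, 407 and 428 UMIs. Clec5a was spread more evenly. It stood at 292, 337, 273 and 153 CPM in all members and at 329, 388, 324 and 197 CPM without mixed cells, lowest at 28 dpa, and was present in 82.1%, 84.5%, 80.0% and 63.6% of the members. Matk was at 65.5, 62.8, 66.0 and 77.2 CPM, and present in 46.3% to 53.5% of the members.

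Cells with a sum of 3, the lowest inside, numbered 44, 28, 28 and 35 and held 284, 443, 816 and 870 CPM of Ctsk. Cells with a sum of 2, just outside, numbered 43, 28, 28 and 53 and held 324, 703, 1102 and 774 CPM of Ctsk. The Ctsk level of both lay below that of all members in every library. Many of these cells were mixed, 17, 5, 5 and 13 inside and 22, 4, 16 and 23 outside, and Krt14 was at 2828, 1990, 636 and 2209 CPM inside and 970, 50.2, 1209 and 2072 CPM outside. Without mixed cells, Ctsk was at 221, 472, 649 and 1368 CPM inside and 234, 600.3, 1478 and 1145 CPM outside, so the cells inside exceeded those outside at 28 dpa only. Atp6v0d2 was then at 96.7, 154, 167 and 215.5 CPM inside and 68.3, 33.7, 0 and 58.7 CPM outside, higher inside in every library. Lyz2, a gate gene, was at 12032, 12417, 11617 and 15737 CPM inside and 6345, 9653, 14455 and 9283 CPM outside, higher inside in every library but 17 dpa.

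**Figure D2:**
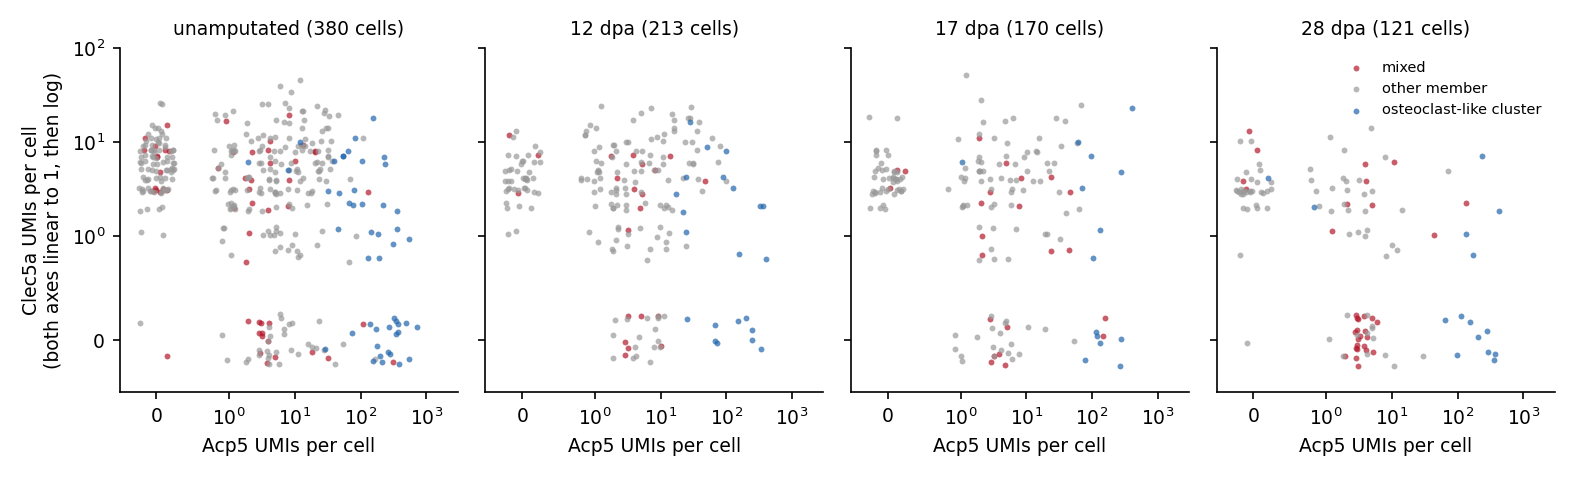
Acp5 against Clec5a UMIs of each member, 1 panel per library, with both axes linear up to 1 UMI and on a log scale above; points are slightly jittered. Mixed members, members of the osteoclast-like cluster and other members have their own colours, and the cells with the most Acp5 UMIs, up to 707, are of the osteoclast-like cluster, which also holds cells with none, while mixed members reach 308.

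UMIs of both Acp5 and Clec5a were held by 55.8% (50.6 to 60.9), 62.9% (56.05 to 69.4), 52.4% (44.6 to 60.1) and 33.9% (25.5 to 43.05) of the members. Acp5 gave the most UMIs of the 3 rule genes in 176, 103, 81 and 57 members, Clec5a in 177, 94, 78 and 48, and Matk in 12, 6, 5 and 7, and 15, 10, 6 and 9 members were tied. Since these classes are ranges cut from counts, they were used only to describe the other genes. Without mixed cells there were 152, 89, 66 and 32 Acp5-led cells and 150, 87, 73 and 43 Clec5a-led cells. The Acp5-led cells were deeper, with medians of 20568, 14195, 16513 and 13647 UMIs against 13321, 9376, 12963 and 9822. Of 5237 genes of at least 20 CPM, 53 (1.01%) were at least 2-fold higher in Acp5-led cells in each of the 4 libraries and 32 (0.611%) were at least 2-fold lower.

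Genes of bone resorption were higher in Acp5-led cells, and part of this difference sat in 1 cluster of osteoclast-like cells, described later. Of the 15 measured genes of the list of resorption enzymes and acid secretion, 11 were at least 2-fold higher in each library and 0 were lower, with a median difference in log2 of CPM + 1 (the log2 difference) of 1.35 beside -0.02 over all genes. Ctsk was at 7152, 5357, 5459 and 10628 CPM in Acp5-led cells and at 1109, 372, 1104 and 2222 CPM in Clec5a-led cells. Mmp9, the gelatinase of osteoclasts and neutrophils, was at 809.7, 616, 438 and 1581 CPM against 7.12, 38.6, 1.0 and 2.08 CPM, so in Clec5a-led cells it was under 20 CPM in every library but 12 dpa. Slc9b2, a sodium-proton exchanger of osteoclasts, was at 405, 334, 297 and 475 CPM against 49.9, 64.0, 30.0 and 0 CPM. The other 8 that were higher were the proton pump subunits Tcirg1, Atp6v1c1, Atp6v1a, Atp6v1b2 and Atp6v1d, the sorting nexin Snx10, the anion exchanger Slc4a2 and the creatine kinase Ckb.

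The osteoclast-like cells made up 47 of 152, 22 of 89, 13 of 66 and 13 of 32 Acp5-led cells and 1, 0, 1 and 2 Clec5a-led cells. With these cells left out of both classes, a choice made after the data were seen, 8 (0.155%) of 5146 genes were at least 2-fold higher in each library and 3 (0.0583%) lower. Ctsk was then at 2545, 2296, 2717 and 2999.5 CPM in Acp5-led cells against 1112, 372, 1099 and 2391 CPM, and Mmp9 at 36.2, 21.4, 26.9 and 23.2 CPM against 7.19, 38.6, 1.01 and 2.24 CPM, so Mmp9 was lower in Acp5-led cells at 12 dpa. Of 13 measured resorption genes 1 was still at least 2-fold higher in each library, Slc9b2. The median log2 difference of that list was 0.67 beside -0.006 over all genes, so the list stayed higher. Of 8 fusion and commitment genes 2 were still higher, Atp6v0d2 and Jdp2, with a list median of 0.0996. Acp5-led cells without a Ctsk UMI numbered 21, 15, 16 and 4.

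Of the 9 measured genes of fusion and commitment, 4 were higher in Acp5-led cells of each library. Atp6v0d2, a proton pump subunit needed for osteoclast precursors to fuse, was at 1048, 729, 849 and 1049 CPM against 120.2, 113, 112 and 231 CPM. Nfatc1, the master transcription factor of osteoclasts, was at 450.4, 405, 383 and 267 CPM against 201, 150, 126 and 56.2 CPM, and the remaining members were Ocstamp, a fusion protein, and Jdp2, an AP-1 partner. Dcstamp, the other fusion receptor, went both ways, with a log2 difference of 0.42 in the unamputated library and -0.74 at 12 dpa. Itgb3, the integrin chain of the sealing zone, and Pstpip1, a podosome adaptor, were higher among the 12 measured podosome genes. Of the 15 measured genes of the CSF1 and RANK pathway and the 9 of the ITAM list, 0 differed 2-fold in all 4 libraries. Tnfrsf11a, the receptor RANK, was at 227.9, 139, 203 and 132 CPM in Acp5-led and 156, 125, 169 and 93.7 CPM in Clec5a-led cells. Trem2, a lipid-sensing receptor that signals through Tyrobp, was at 473, 533, 542 and 605 CPM against 394, 454, 518 and 843 CPM, so its order turned at 28 dpa.

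Some monocyte genes were lower in Acp5-led than in Clec5a-led cells, 3 of 5 measured classical and 1 of 3 nonclassical ones, beside 0.611% of all genes. With osteoclast-like cells left out these counts were 1 of 5, Ccr2, and 1 of 3, Cx3cr1. Ccr2, the receptor by which monocytes leave the marrow, was at 41.4, 15.9, 26.1 and 29.5 CPM in Acp5-led and 224, 163, 160 and 119 CPM in Clec5a-led cells. Vcan and Fn1, matrix genes of monocytes, were the other lower classical genes. Cx3cr1, the fractalkine receptor and the nonclassical gene, was at 15.4, 11.6, 11.3 and 31.4 CPM against 94.8, 57.4, 143 and 127 CPM. Csf1r, a gate gene, was at 482, 479, 484 and 395 CPM in Acp5-led cells and 323, 332, 350.1 and 256 CPM in the others. Outside the lists, the metallothionein Mt3 led the higher side at 322, 174, 41.8 and 244 CPM against 3.12, 0, 0 and 0 CPM, but was at 1.49, 3.06, 2.34 and 7.73 CPM in Acp5-led cells without the osteoclast-like ones, and Cd14, the lipopolysaccharide co-receptor, was at 156, 183, 201 and 242 CPM against 595, 644, 590.1 and 822 CPM. These 2 genes were chosen after their values were seen. For Ccr2, Cx3cr1, Cd14 and Csf1r the 4 values of 1 class did not overlap those of the other, with osteoclast-like cells kept. No share of all genes without such overlap is given beside this.

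**Figure D3:**
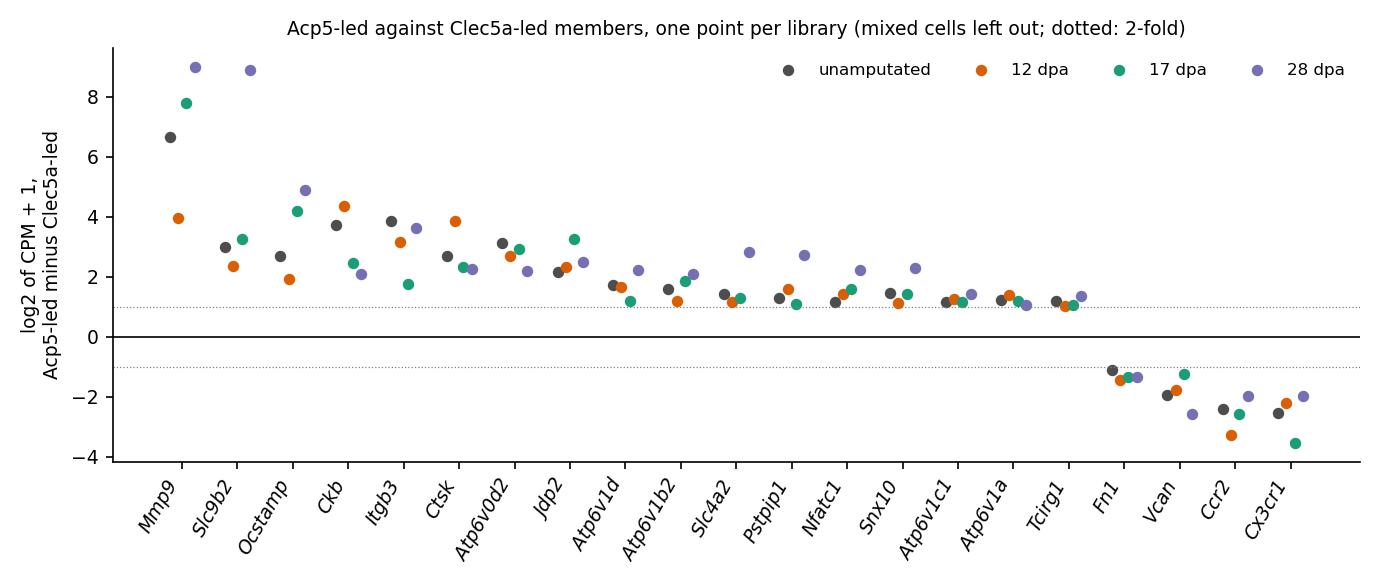
Difference between Acp5-led and Clec5a-led members in log2 of CPM + 1, mixed cells left out and osteoclast-like cells kept, 1 point per library, for the genes of the resorption, fusion, podosome and monocyte lists that were at least 2-fold higher or lower in each library; dotted lines mark 2-fold. Mmp9, Slc9b2 and Ctsk lie above the upper line and Ccr2 below the lower one in all 4 libraries.

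Clustering the 753 unmixed members gave 8 clusters, and 1 of them took the only name tested, osteoclast-like. The name needed at least 3 osteoclast markers in 25% of a cluster's cells and at least 3 among its 20 leading genes. This cluster of 99 cells, called osteoclast-like, had 6 of the 8 osteoclast markers in at least 25% of its cells and 4 of them among its 20 leading genes. Acp5, which chose the members, is 1 of these markers, and without it the counts were 5 of 7 and 3, namely Ctsk, Mmp9 and Ocstamp. The other 7 clusters had 2 to 5 of the 8 markers in 25% of their cells, the most in Slpi/Cxcl3/Hp, and 0 among their leading genes. The osteoclast-like cluster held Acp5 at 8171 CPM, Ctsk at 14370 CPM, Mmp9 at 2110 CPM and Nfatc1 at 703 CPM, while Lyz2, a gate gene, was at 528 CPM. Calcr, the calcitonin receptor of mature osteoclasts, was at 3 CPM and Oscar, an ITAM-coupled receptor, at 15 CPM. The mural genes Rgs5 and Ebf1 also stood among its leading genes, and Scrublet marked 11 of the 99 cells. By library it held 48, 22, 14 and 15 cells, so every library held some. Genes of the lists, the rule and the gate were left out of the clustering, so the cluster was formed from other genes of the same cells. Its levels are a description. Cluster sizes are given below as counts, with no comparison of shares between libraries, because leading genes of several clusters differed between libraries.

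Within the osteoclast-like cells the resorption enzymes were high in every library. Acp5 was at 8155, 7742, 6939 and 10182 CPM, Ctsk at 14825, 12790, 12899 and 16297 CPM and Mmp9 at 2103, 2059, 1561 and 2809 CPM, each highest in the 15 cells from 28 dpa. Of 10 measured fusion and commitment genes 3 were at least 2-fold lower at 28 dpa than in the unamputated library, Tnfrsf11a, Mitf and Jdp2, and 0 higher, beside 12.4% and 5.37% of all genes, in 15 against 48 cells. Nfatc1 was at 756, 727, 732 and 418 CPM, Jdp2 at 1124, 747, 1067 and 457 CPM, and Tnfrsf11a, the receptor RANK, at 324, 245, 423 and 127 CPM. Lyz2 was at 237, 619, 101 and 2082 CPM there.

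The other 7 clusters are given by their leading genes. Cluster Ccr2/Nrg1/Epcam had 97, 30, 36 and 7 cells, and the MHC class II genes H2-Aa, H2-Ab1 and Cd74 and the cytokine Il1b stood among its leading genes. Of the 5 Langerhans cell markers, Epcam, Il1r2 and Cd74 stood there too, and 1 of the 5 was found in at least 25% of its cells. Cluster Tppp3/Lgals7/Crip2 had 27, 20, 26 and 27 cells, and the keratins Krt14 and Krt5 stood among its leading genes at 128 and 66.8 CPM. Cluster Gpnmb/Mfge8/Ctsl had 38, 13, 18 and 25 cells. The Gpnmb cluster held Mmp12, a macrophage elastase, at 2789 CPM, the fatty acid carrier Fabp5 at 4647 CPM and Apoe at 5085 CPM. Cluster Slpi/Cxcl3/Hp had 38, 39, 10 and 3 cells and held the lectin receptor Clec4e at 1364 CPM and the peroxidase Prdx1 at 7284 CPM. Cluster Aldh1a2/Pik3r3/Pcdh7 had 45, 18, 13 and 0 cells and held Nfatc1 at 504 CPM and Jdp2 at 455 CPM with Acp5 at 1063 CPM. Cluster Hist1h1b/Top2a/Ube2c (29, 16, 20 and 10 cells) was led by 8 cell cycle genes, and Scrublet marked 26.7% of it. Cluster Cd74/Lst1/Aif1 had 4, 34, 10 and 1 cells and was mostly 1 library, 12 dpa, so it may be that library and not a kind of cell. The label of Acp5 and Clec5a myeloid cells thus names a rule and not 1 cell type.

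**Figure D4:**
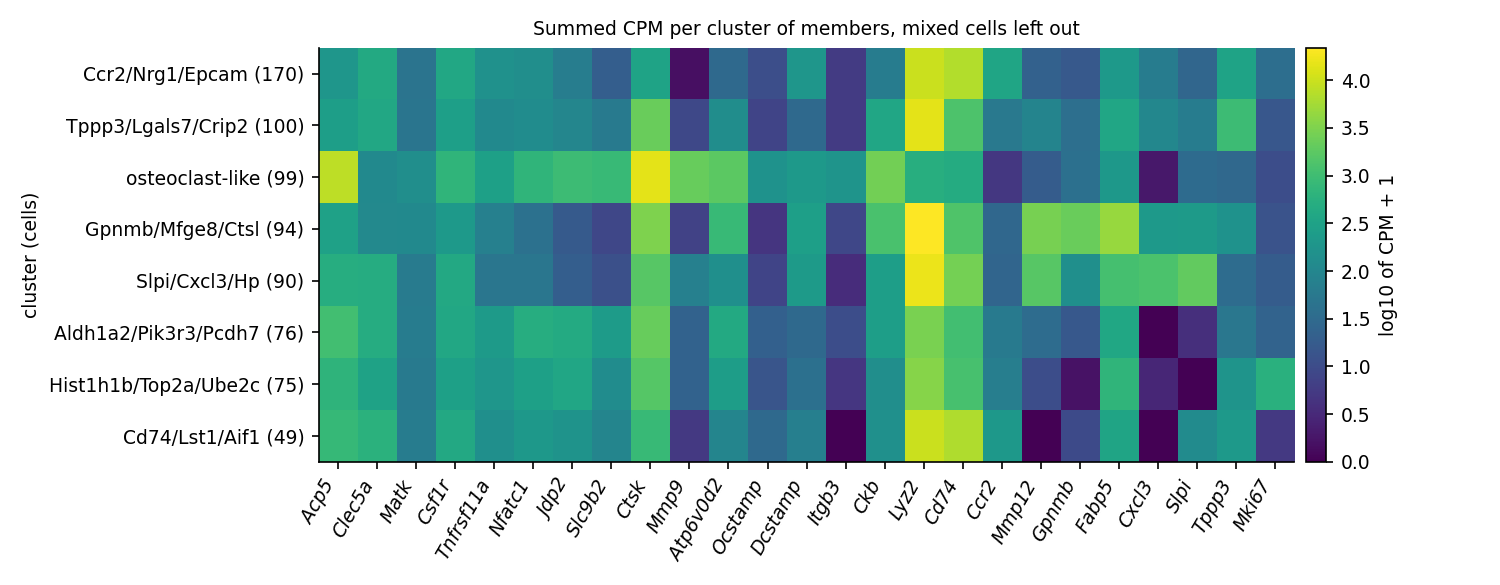
Level of 25 genes in the 8 clusters of unmixed members, as log10 of CPM + 1 summed over the cells of a cluster, with the number of cells beside each name. Acp5, Ctsk, Mmp9, Slc9b2 and Ocstamp are highest in the osteoclast-like cluster, where Lyz2 is lowest.

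Set against the pooled cells of the 4 other myeloid sets in the same library, the members held more transcripts of resorption and fusion genes and fewer of resident macrophage genes. Of 5675 genes of at least 20 CPM, 40 (0.705%) were at least 2-fold higher in each of the 4 libraries and 114 (2.01%) at least 2-fold lower, 2.71% in either direction. Leaving the mixed cells out of both sides gave 62 (1.13%) and 138 (2.52%) of 5475, or 3.65%. Mixed cells were 25.4%, 6.43%, 18.4% and 11.8% of the other sets. The sets were chosen by gene sums that exclude each other, and the genes of the sums were left out of those named. The ITAM and CSF1 receptors that carry the signals for osteoclast formation did not stand out: 1 of 9 measured genes of the ITAM list was higher, Clec4e, and 0 of 14 genes of the CSF1 and RANK pathway were higher, with rule genes left out of both counts. Tyrobp, the adaptor of Clec5a, was at 1374, 2193, 1587 and 1933 CPM in members without mixed cells and at 1223, 2135, 1377 and 1102 CPM in all cells of the 4 other sets. Tnfrsf11a was at 194, 128, 181 and 106 CPM against 124, 119.8, 154 and 142 CPM, with the order turned at 28 dpa.

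Ctsk was at 3760.0, 2824, 3107 and 4432 CPM in the members and at 251, 369.8, 399 and 592 CPM in the other sets. Mmp12 was at 355, 387, 519.9 and 934 CPM against 10.4, 17.0, 27.2 and 4.25 CPM, so every library of the members lay above every library of the others for both proteases. Both were named for their large weakest difference over the libraries, so this gap is near to what that choice fixes. Mmp9 was at 394, 290.2, 243 and 451 CPM against 83.2, 1.53, 55.5 and 2.15 CPM. The Mmp9 level came from few cells, while Ctsk was uneven but found in 62.6%, 62.4%, 65.3% and 61.2% of the members. The tenth of members with the most UMIs of a gene held 67.8%, 69.2%, 61.7% and 62.7% of those of Ctsk and 93.9%, 98.7%, 98.3% and 97.1% of those of Mmp9, which was found in 25%, 16.0%, 14.7% and 14.9% of the members. The 8 osteoclast markers, which include the rule gene Acp5, summed to 26811 CPM in the osteoclast-like cluster and to 758 CPM in the largest, Ccr2/Nrg1/Epcam. In the remaining clusters they summed to between 1849.5 and 4656 CPM, beside 469.7 to 662 CPM in the other sets. In the set of Ear2, Adgre4, Plac8 and Ly6c2 cells Mmp9 was at 309, 7.57, 396 and 0 CPM, but the neutrophil markers summed to 190679, 2760, 206870 and 446 CPM in that set, and mixed cells were 464 of 633, 5 of 40, 175 of 247 and 8 of 45 of its cells. Without mixed cells Mmp9 was there at 1.79, 0, 2.06 and 0 CPM, from 3, 0, 1 and 0 UMIs, against 449, 355, 224 and 697 CPM in the members. Across the lists, 4 of 8 measured fusion genes were higher in all libraries, with a median log2 difference of 1.499, and 5 of 15 resorption genes, Acp5 left out, with a median of 1.07, beside -0.03 over all genes. Besides Ctsk and Mmp9, the named genes of these lists were Slc9b2, Ckb, Atp6v0d2, Jdp2, Dcstamp and Nfatc1, with lowest log2 differences over the libraries of 3.91, 1.90, 2.88, 1.60, 1.58 and 1.29.

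Other named genes that were higher lay outside bone resorption. Cxcl3, a neutrophil chemokine (log2 3.55 in its lowest library), Slpi, an inhibitor of neutrophil elastase (1.35), and Clec4e, a receptor for mycobacterial cord factor (1.21), belong to inflammation. Srxn1 (1.51), Txn1 (1.38) and Prdx1 (1.05) belong to the thioredoxin and peroxiredoxin system against oxidants. Others were Bdh2, Chchd10, Myo1d, Sdc1, Esd, Malt1, Gsap, Sfn and Sbsn, between 1.06 for Gsap and 2.72 for Bdh2. Sfn, a gene of stratified epithelium, was at 1.49 in its lowest library with all cells and at -0.63 without the mixed cells. It also turned negative with a higher sum and after thinning, as given below, and the cause was not tested.

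With rule genes left out, all 9 measured resident macrophage genes were at least 2-fold lower in the members in each library, with a median log2 difference of -3.33. They include the complement genes C1qa and C1qc and the mannose receptor Mrc1, whose highest difference over the libraries was -3.59. Gpr34, Stab1 and Selenop followed at -3.02, -2.81 and -2.74. Since cells of the resident sets were kept apart by Lyve1, Folr2 and Cbr2, this direction is near to what the rule fixes.

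Between time points, all dpa libraries were set against the same unamputated library, so these comparisons share a control. Among all members, 47 (0.742%) genes were at least 2-fold higher and 125 (1.97%) lower of 6336 at 12 dpa, 46 (0.708%) and 69 (1.06%) of 6495 at 17 dpa, and 184 (2.85%) and 368 (5.7%) of 6453 at 28 dpa. In either direction this was 2.71%, 1.77% and 8.55% of the genes. The median log2 difference of all genes was -0.22, -0.06 and -0.18, and centring on it turned the counts to 83 higher and 62 lower, 57 and 57, and 238 and 198. Without mixed cells the counts were 16 (0.265%) and 80 (1.33%) of 6031 at 12 dpa, 29 (0.466%) and 40 (0.643%) of 6217 at 17 dpa, and 121 (1.99%) and 358 (5.89%) of 6077 at 28 dpa, or 1.59%, 1.11% and 7.88% in either direction. The 28 dpa library had the fewest members and the most called genes.

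Several of the genes that differed most among all members are known from the cell types of the mixed cells, while Cdk8, Gm42418, Cmss1 and Gm15564 at 12 dpa and Mt3, Hspa1b and Aqp1 at 17 dpa stood among the named genes with and without mixed cells. The neutrophil granule genes Camp, Ngp, Lcn2, Retnlg and Ltf led the lower side at 12 dpa, Camp, Ngp, Lcn2, S100a9 and Ltf led it at 28 dpa, and the epidermal genes Krt2, Spink12, Ly6g6c, Slurp2 and Cst6 led the higher side at 28 dpa. S100a8 was at 2234, 112, 999.7 and 79.9 CPM in all members but at 83.7, 102, 69.2 and 69.2 CPM without mixed cells. Krt14 was at 677, 311, 258 and 1499 CPM in all members and at 26.9, 30.0, 44.8 and 93.5 CPM without mixed cells. Krt14 and S100a8 were among the genes that called the mixed cells, so their lower levels without them are fixed by the call. The genes described next are those without mixed cells.

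At 28 dpa, without mixed cells, several genes of macrophages were higher. Of the genes named here, Gpnmb, Mmp12 and Cd36 were leading genes of the Gpnmb/Mfge8/Ctsl cluster and Aqp1 and Cd81 of the Tppp3/Lgals7/Crip2 cluster, and the part of the makeup by cluster was not tested. Aqp1, a water channel, was at 18.5, 12.0, 67.8 and 247.5 CPM, Pf4, a chemokine of resident macrophages and platelets, at 108, 192, 187 and 565 CPM, and Gpnmb, a lysosomal glycoprotein, at 364, 126, 199.5 and 998 CPM. Mmp12 was at 448, 465, 651 and 1284 CPM and thus also highest at 28 dpa. With rule genes left out, 3 of 7 measured resident macrophage genes were at least 2-fold higher, namely Pf4, C1qa and C1qc, and 0 lower, beside 1.99% of all genes higher, with a median log2 difference over the list of 0.58 beside -0.17 over all genes. Of 15 lipid-associated macrophage genes 2 were higher, Gpnmb and the fatty acid receptor Cd36, with a median of 0.72. Other named genes that were higher were Csmd1 (log2 2.98), Cd81 (2.82), Cxcl14 (2.69), Tnfsf9 (2.54), Lyz1 (2.36), Ccl2 (2.32), Fabp7 (2.25) and Rnase4 (2.22). Several were higher still in the non-myeloid cells of the 28 dpa library, where Aqp1 was at 653 CPM, Csmd1 at 236.5 CPM, Cd81 at 562 CPM, Cxcl14 at 287 CPM and Rnase4 at 399.8 CPM, and Ccl2 was at 140.1 CPM there against 103 CPM in the members.

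Markers of other cell types were also higher in the unmixed members at 28 dpa than in those of the unamputated library. The 6 keratinocyte markers summed to 118, 133, 129 and 285.5 CPM, the 6 fibroblast markers to 223, 509, 315 and 469.8 CPM, and the 6 mural markers to 85.5, 94.3, 90.9 and 195.5 CPM. Scrublet marked 19 of the 88 unmixed members at 28 dpa and 21 of the 326 in the unamputated library. The part of these cells and transcripts in the differences at 28 dpa was not tested.

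**Figure D5:**
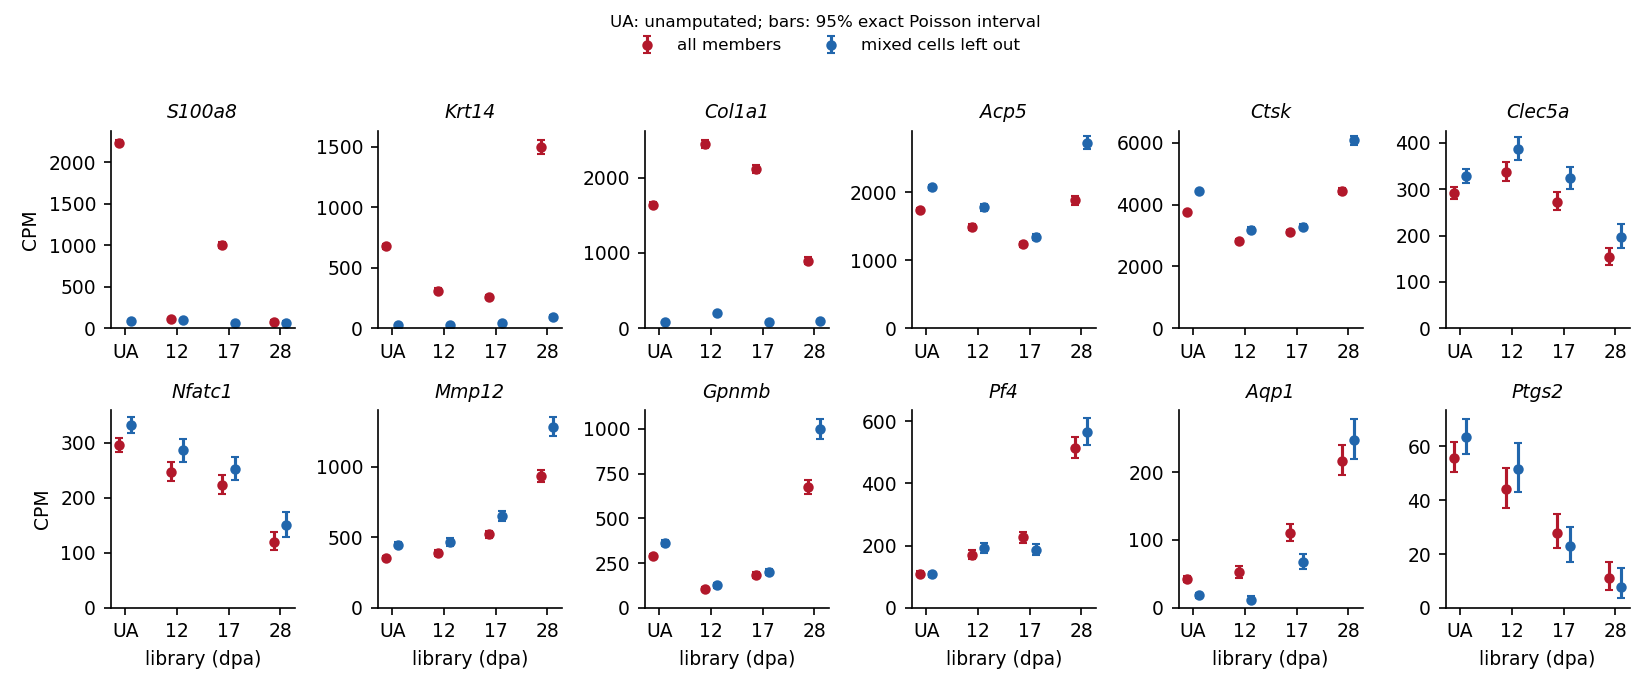
Levels in CPM, on linear axes from 0, of 12 genes by library, for all members and with mixed cells left out; bars are 95% exact Poisson intervals that cover counting error only. Krt14, Col1a1 and S100a8 were used to call the mixed cells, so their lower levels without them are fixed by the call, and Aqp1, Pf4, Gpnmb and Mmp12 are highest at 28 dpa either way.

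Some of the same genes were also highest at 28 dpa in the other myeloid cells, and some were not. There Aqp1 was at 35.2, 35.7, 192 and 994 CPM, Pf4 at 583, 794, 1887 and 3122 CPM, Lyz1 at 157, 88.7, 319 and 954 CPM and Cd36 at 252, 169.7, 591 and 1151 CPM. Gpnmb and Mmp12 were lowest at 28 dpa in those cells, at 99.8, 146, 52.7 and 35.9 CPM and at 10.4, 17.0, 27.2 and 4.25 CPM. The Lyve1 and Folr2 set had grown to 1640 cells in that library, and whether free RNA from those cells entered the members was not tested.

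Some regulators of osteoclast formation were lower at 28 dpa. Nfatc1 was at 332, 286, 253 and 151 CPM without mixed cells (log2 -1.14), Jdp2 at 398, 219, 305 and 163 CPM (-1.28), and Mitf, the M-box factor, had a log2 difference of -1.16, which makes 3 lower of 9 measured fusion and commitment genes, beside 5.89% of all genes, while the median over the list was -0.12 beside -0.17 over all genes. Relative to the median of all genes, Nfatc1 and Mitf lay just short of 2-fold. Of 12 podosome genes, the rule gene Matk left out, 3 were lower, Itgav, Sh3pxd2a and the kinase Src, the last at 98.8, 104, 68.7 and 40.7 CPM. Of 15 genes of the CSF1 and RANK pathway, the gate gene Csf1r left out, 1 was lower, Bcl6 (-1.61), a share near that of all genes, and Tnfrsf11a was at -0.86. The resorption enzymes did not go the same way: Ctsk was at 4428, 3195, 3285 and 6080.1 CPM, Mmp9 at 449, 355, 224 and 697 CPM, and of 16 measured genes besides Acp5 1 was at least 2-fold higher, the carbonic anhydrase Car2 (1.02), beside 1.99% of all genes, and 0 lower. The lower named genes were Ptgs2, a prostaglandin synthase, at 63.4, 51.6, 23.1 and 7.79 CPM, then Pde4d (-2.55), Gm4258 (-2.23), Dgki (-2.18), Pcdh7 (-1.99), St18 (-1.97), Carmil1 (-1.95), Dock5 (-1.92), Cpeb2 (-1.89) and Fmnl2 (-1.85). Pcdh7, St18 and Pde4d are leading genes of the Aldh1a2/Pik3r3/Pcdh7 cluster, which held 45 cells of the unamputated library and 0 of 28 dpa, with Nfatc1 at 504 CPM and Jdp2 at 455 CPM. With that cluster left out, a choice made after the data were seen, 2 of 9 fusion and commitment genes were lower, Jdp2 (-1.19) and Mitf (-1.08), beside 5.71% of all genes, and Nfatc1 was at -0.94, short of 2-fold. Pde4d was then at -2.26, St18 at -1.72 and Pcdh7 at -1.51, and 0 of 16 resorption genes were called, beside 1.8% of all genes higher, so the call of Car2 was lost.

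At 12 dpa few genes differed. The members held Xist and almost no Y-linked transcripts in this library, and the reverse in the unamputated one. Time and this signal of sex cannot be told apart here. Slpi, a leading gene of the Slpi/Cxcl3/Hp cluster, was higher (log2 1.39). Cdk8 (2.08), Gm42418 (1.61), Cmss1 (1.46), Gm15564 (1.46), Spata7 (1.42), Lars2 (1.31), Hist1h4d (1.30) and Hist1h1e (1.12) were also higher. Gm42418 was at 7527, 22957.5, 13219 and 8621 CPM without mixed cells and at 9999, 23876, 15603 and 13191 CPM in the other myeloid cells, so its high level belonged to the library and not to the members alone. The lower named genes included Lyz1 (-2.43), the selenoprotein carrier Selenop (-2.10), Gpnmb (-1.52) and the B-cell and osteoclast adaptor Blnk (-1.28). None of the 9 fusion genes and 15 resorption genes besides Acp5 was called in either direction, beside 1.59% of all genes.

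At 17 dpa, Aqp1 (log2 1.82), the histone genes Hist1h4d, Hist1h1b and Hist1h1e (1.63, 1.40 and 1.39), Slamf9 (1.31) and Tppp3 (1.23) were higher without mixed cells. Hist1h1b and Hist1h4d are leading genes of the Hist1h1b/Top2a/Ube2c cluster, of which Scrublet marked 26.7%, and Tppp3 and Aqp1 of the Tppp3/Lgals7/Crip2 cluster, and the part of the makeup by cluster was not tested. The metallothionein Mt3 was lower (-3.01), with 857, 589, 149.6 and 429 CPM within the osteoclast-like cells. The other lower named genes were the chaperone genes Hspa1b (-1.65) and Hspa1a (-1.22), the haem oxygenase Hmox1 (-1.54), the ubiquitin gene Ubb (-1.49), the glycolytic enzyme Eno1 (-1.58), the transcriptional repressor Bcl6 (-1.43), Ptgs2 (-1.42), Gm14636 (-1.31) and Erh (-1.30). Ubb was at 781, 391, 277 and 437 CPM in members and at 724, 456, 290.3 and 419.7 CPM in the other myeloid cells, so both kinds were highest in the unamputated library. Of the 12 dissociation response genes 2 were lower, Hspa1a and Hspa1b, and of 16 resorption genes besides Acp5 1 was lower, Mmp9, and 0 higher, beside 0.643% of all genes lower and 0.466% higher.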

How the data were processed

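The deposited files hold raw UMI counts, whole numbers per gene and cell barcode, made with Cell Ranger 7.1.0 on mm10, per the submitters' processing notes. How cells were called, and on which annotation, was not given in the sources used here. Of 32285 genes, 32235 IDs matched GENCODE M21. The 4 libraries held 16045, 8813, 10514 and 15253 barcodes, and kept were those with 500 or more genes, 1000 or more UMIs and a mitochondrial share of 10% or less (11954, 6942, 8693 and 11677). The members held 7328504, 3087613, 2863913 and 1826071 UMIs. Scrublet ran in each library and marked the highest scores at 0.8% per 1000 barcodes, which was 12.8%, 7.05%, 8.41% and 12.2% of barcodes (its own threshold marked 2.03%, 2.70%, 2.83% and 4.24%); marked cells stayed in and were left out as an alternative.

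UMIs were summed over the members of a library and scaled to CPM, and differences are in log2 of CPM + 1. A gene was measured when the mean CPM of both sides was at least 20 and was called at 2-fold or more. With 1 library per group no p-value was computed. Intervals are exact (Clopper-Pearson for shares, Poisson for counts), and reads of 1 library are not replicates of a condition. Named genes were the 10 highest and 10 lowest per time point at 50 CPM or more, and against the other myeloid sets the 25 and 10 with the most extreme weakest difference over the libraries, leaving out mitochondrial, ribosomal protein, haemoglobin, immunoglobulin and sex-linked genes, genes of the rule, markers of non-myeloid classes, genes with overlapping intervals, and genes under 0.1 of their level in non-myeloid cells. The genes of the lists were also named. A gene that this rule picked is not reported here. Unmixed members were clustered in scanpy 1.11.5 with the Leiden method at resolution 0.6, from the 2000 most variable genes reduced to 20 principal components, with 15 neighbours per cell. Genes of the lists, the rule and the gate, mitochondrial and sex-linked genes, Cdk8 and Gm15564 were left out before the variable genes were chosen. The name osteoclast-like, the only one tested, needed at least 3 osteoclast markers each detected in 25% of a cluster's cells. It also needed at least 3 among the cluster's 20 leading genes, which were ranked by fold against the other clusters. Scripts ran on Python 3.11.15 with scipy 1.17.1, numpy 2.4.6 and pandas 2.3.3, and the fold change step was tested on simulated data. The members and lists were chosen with earlier results of these data known, and the mixed call and the Acp5-led and Clec5a-led classes after the data were seen.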

Additional observations from a re-analysis of the deposited data

How the results depend on the processing

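No paired analysis was possible because each group has 1 library. The share of members among gate cells depended on the sum required. A sum of 5 gave 9.35%, 11.9%, 5.46% and 2.09% in the unamputated, 12, 17 and 28 dpa libraries, a sum of 2 gave 12.9%, 17.0%, 8.79% and 5.96%, and thinning every cell to 3000 UMIs gave 5.59%, 7.58%, 2.77% and 0.946%. In each of these the 12 dpa share was highest and the 28 dpa share lowest. As a share of all kept cells the values were 3.18%, 3.07%, 1.96% and 1.04%, with the unamputated library highest. Leaving the neutrophil-rich cells out of the gate gave 14.4% in the unamputated library, and leaving out all mixed cells gave 14.8% there and 9.17% at 17 dpa. The 12 dpa share was 15.46% and 15.42% in these 2 settings.

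The count of genes past 2-fold at 12 dpa, 172 with all members, was 271 with the stricter cell filter, 1022 after thinning, 96 without mixed cells, 500 at a gene minimum of 5 CPM and 28 at 100 CPM. At 17 dpa, 115 became 1027 after thinning, 69 without mixed cells, 359 at 5 CPM and 31 at 100 CPM. At 28 dpa, 552 became 1972 after thinning, 1157 at 5 CPM and 151 at 100 CPM. The count against the other myeloid sets, 154, stayed between 121 and 200 in every alternative run. The members' counts without mixed cells stand in the report. Thinning left both fewer members, as the shares above show, and fewer UMIs in each, which limits the thinned counts.

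Some named genes turned direction. Without mixed cells the log2 difference at 12 dpa was -0.86 for Timp1, 0.28 for S100a8 and 0.66 for Chil3, and without neutrophil-rich cells 0.28 for S100a8 and 0.54 for Chil3. At 17 dpa without mixed cells it was -0.82 for Krt2, -0.088 for Spp1, -0.25 for Mmp13, -0.35 for Calm4 and 0.62 for Cstdc5, and at 28 dpa -0.43 for Gm94 and 0.18 for Wfdc21, which was at 0.22 without neutrophil-rich cells. Without the cells marked by Scrublet it was 0.60 for Csmd1 at 12 dpa, and at 17 dpa -0.068 for Fmod, -0.16 for Spp1, -0.20 for Mmp13, 0.70 for Csmd1 and 0.82 for Sparcl1. After thinning it was -2.31 for Timp1 and 3.57 for Csmd1 at 12 dpa, -4.03 for Krt2, -4.21 for Calm4, 2.11 for Sparcl1 and 1.22 for Prkg1 at 17 dpa, and -4.03 for Krt2, -1.68 for Cst6, -2.43 for Krt24 and 4.91 for Meg3 at 28 dpa. With a sum of 5 it was -1.37 for Krt16 at 12 dpa and 0.21 for Cstdc5 at 17 dpa. Against the other myeloid sets, the lowest difference of Sfn was -0.16 with a sum of 5, -3.17 after thinning and -0.63 without mixed cells. The cause was not tested for any of these. Over all alternatives, 767 values of genes named with all members and 695 of list medians stayed past 2-fold or stayed short of it. Another 54 and 9 crossed the 2-fold limit, and 34 and 0 that were past 2-fold in the main run changed sign. A list median short of 2-fold could change sign without being counted. Genes named only without mixed cells were not part of these runs.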

Other observations

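After thinning each cell to 3000 UMIs, 17.0% (13.3 to 21.2), 12.3% (8.21 to 17.5), 16.6% (11.3 to 23.1) and 19.2% (12.6 to 27.4) of the members of the unamputated, 12, 17 and 28 dpa libraries held a UMI of Mki67, a proliferation antigen, or Top2a, the topoisomerase of dividing cells. In the other myeloid sets the shares were 13.7%, 9.21%, 15.9% and 13.8%, each lower than in the members of the same library with overlapping intervals. A share of cells with a UMI is not a share of dividing cells, no background share for free RNA was computed, and Scrublet marked 26.7% of the members of the Hist1h1b/Top2a/Ube2c cluster. Between 1 and 3 members per library were shallower than 3000 UMIs and were left out. Without thinning the shares among members were 36.6%, 28.2%, 31.8% and 37.2%.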
